A study of Mus musculus with 4 samples.

Results

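Glycolysis is the chain of cytosolic reactions that turns glucose into pyruvate and then, in rapidly dividing cells, into lactate. Poly(A) tail lengths and read numbers are described here for 10 genes of that chain: Hk2, Gpi1, Aldoa, Tpi1, Gapdh, Pgk1, Pgam1, Eno1, Pkm and Ldha. They were taken by symbol from the deposited table of reads, with every read of a tail length above 0 in all 4 libraries, and are 10 of its 13831 symbols. Together they had 5477 reads in the first wild-type library, 2329 in the second, 5664 in the first knockout library and 3885 in the second.

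The study used J1 mouse embryonic stem cells grown in serum with LIF, a cytokine that keeps such cells undifferentiated, and no treatment was given. The comparison was between cells that were wild type (WT) and cells knocked out for Mov10 (KO), which encodes an RNA helicase. There were 2 libraries of each genotype (WT 1 and WT 2, KO 1 and KO 2), and both genotypes share the J1 background and the culture medium. How the knockout was made, and whether it is 1 clone, is not given in the sources used here, nor is it stated that the libraries of a genotype came from separate cultures, so the p-values measure the spread between these libraries, which may be technical. Native polyadenylated RNA was read strand by strand through nanopores, so each read is 1 molecule with its tail, estimated in nucleotides (nt), and read numbers were not divided by length.

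Pluripotent stem cells draw heavily on glycolysis, and its enzymes are encoded by abundant, stable mRNAs. Hexokinase and glucose phosphate isomerase prepare the sugar, aldolase splits it and triose phosphate isomerase interconverts the products. The later enzymes harvest ATP and NADH, and lactate dehydrogenase regenerates NAD+ from pyruvate. A poly(A) tail is added in the nucleus, shortened in the cytoplasm, and bound along its length by poly(A)-binding protein.

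The libraries held 439535, 351133, 683239 and 430012 reads with a tail (WT 1, WT 2, KO 1, KO 2, the order used for every set of 4 values below), and their median tails were 97.3, 105.6, 105.8 and 98.1 nt. Mov10, the targeted gene, had 26 and 14 reads in the WT libraries and 0 and 1 in the KO libraries. All 8 pluripotent stem cell markers sought were detected. Col1a1, Col1a2, Col3a1 and Postn of the 5 fibroblast markers had no read and Thy1 had 2 to 8 reads per library, while the primitive endoderm markers summed to 1 to 2 reads and the mesoderm and neural markers to 0 to 3.

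Against the length usual for a gene in these cells, tails of glycolysis mRNAs were mostly shorter in WT 1 and mostly longer in the other libraries. Pooled over the 10 genes, the median tail was 96.2, 113.8, 112.6 and 113.1 nt, so WT 1 was low and the other 3 libraries lay within a few nt of each other. Tails under 30 nt made up 1.10%, 1.37%, 0.494% and 0.772% of these reads, and tails of 150 nt or more made up 14.6%, 21.6%, 22.7% and 23.8%. Over all reads of each library, tails under 30 nt made up 2.35%, 3.02%, 1.55% and 2.75%. Those of 150 nt or more made up 18.8%, 24.0%, 23.7% and 19.6% of all reads. Among the 1935 genes with at least 20 reads in every library, the median of gene medians was 102.1, 109.4, 110.0 and 102.0 nt. Hk2 had too few reads to be among them. Of the other 9 glycolysis genes, 2, 7, 6 and 9 lay above that median in the respective library.

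The promoters of 4 of these genes are printed here: Gapdh and Pgk1, whose read numbers were highest in WT 1, Pgam1, whose read number was not, and Ldha, the 1 gene of the 10 with CACGTG. Each is the 250 bases before an annotated start in RefSeq (build GRCm38.p6), 5′ to 3′ on the gene's strand. All 10 genes were matched, with 16 starts. Capitals mark ACGTG or GCGTG on either strand, the core letters bound by hypoxia-inducible factors, so that CACGT and CACGC are marked too. ACGTG also lies within CACGTG, the E-box bound by Myc.
Gapdh, chr6:125165774-125166023, minus strand: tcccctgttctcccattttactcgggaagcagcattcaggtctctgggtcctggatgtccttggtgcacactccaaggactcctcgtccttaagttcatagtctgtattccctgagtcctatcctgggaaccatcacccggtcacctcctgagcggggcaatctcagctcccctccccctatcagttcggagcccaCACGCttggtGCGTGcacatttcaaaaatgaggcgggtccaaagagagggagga
Pgk1, chrX:106186850-106187099, plus strand: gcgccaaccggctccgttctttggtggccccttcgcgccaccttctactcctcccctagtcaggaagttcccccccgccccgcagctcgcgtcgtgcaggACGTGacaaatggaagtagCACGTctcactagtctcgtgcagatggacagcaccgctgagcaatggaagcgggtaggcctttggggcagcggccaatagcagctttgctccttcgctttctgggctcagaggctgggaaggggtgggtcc
Pgam1, chr19:41911621-41911870, plus strand: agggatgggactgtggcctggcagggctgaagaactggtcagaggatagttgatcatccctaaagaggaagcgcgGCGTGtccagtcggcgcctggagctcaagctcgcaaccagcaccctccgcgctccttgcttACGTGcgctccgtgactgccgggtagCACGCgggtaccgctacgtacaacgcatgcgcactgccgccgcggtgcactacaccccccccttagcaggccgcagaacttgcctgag
Ldha, chr7:46845554-46845803, plus strand: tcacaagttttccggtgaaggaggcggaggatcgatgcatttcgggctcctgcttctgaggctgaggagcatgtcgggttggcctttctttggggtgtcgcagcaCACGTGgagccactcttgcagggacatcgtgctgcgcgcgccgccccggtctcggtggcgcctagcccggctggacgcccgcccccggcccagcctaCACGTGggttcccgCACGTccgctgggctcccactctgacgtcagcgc
ACGTG or GCGTG occurred in 12 of the 16 promoters, which belong to 8 of the 10 genes, against 38.6% of 32851 mouse promoter windows of that length. Windows of neighbouring Eno1 starts overlap and share matches, as do those of neighbouring Aldoa starts, so counts of promoters hold some matches more than once. Gpi1 and Tpi1 had no match. In Gapdh the marked letters lay 54 and 44 bases before the start, and in Pgk1 150 and 131 bases before it. CACGTG occurred in 1 of the 16 promoters, that of Ldha, against 6.02% of all windows, and TATAAA in none of the 16 against 12.4%. GGGCGG, the core bound by Sp1, occurred in 10 of the 16 promoters, of 8 genes, and in 32.7% of all windows. These matches describe the letters of the windows, not occupied sites.

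In the comparison of genotypes, median tails were longer in KO than in WT by the fitted difference for all 9 glycolysis genes with enough reads, but none passed the test. The differences ran from 0.05 for Gpi1 to 0.23 for Tpi1 on the log2 scale, with a median of 0.09, whereas 51.8% of all 1935 genes were above 0 and their median was 0.01. Each had an adjusted p of 0.9998 (limma on log2 median tails). The share of all genes past an adjusted p of 0.05 was 0.0%, and 45 of them, none a glycolysis gene, had an unadjusted p under 0.05. Without WT 1, 5 of 9 were above 0, with a range of -0.05 to 0.15 and a median of 0.01, while 39.3% of all genes were above 0 and their median was -0.05.

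**Figure D1:**
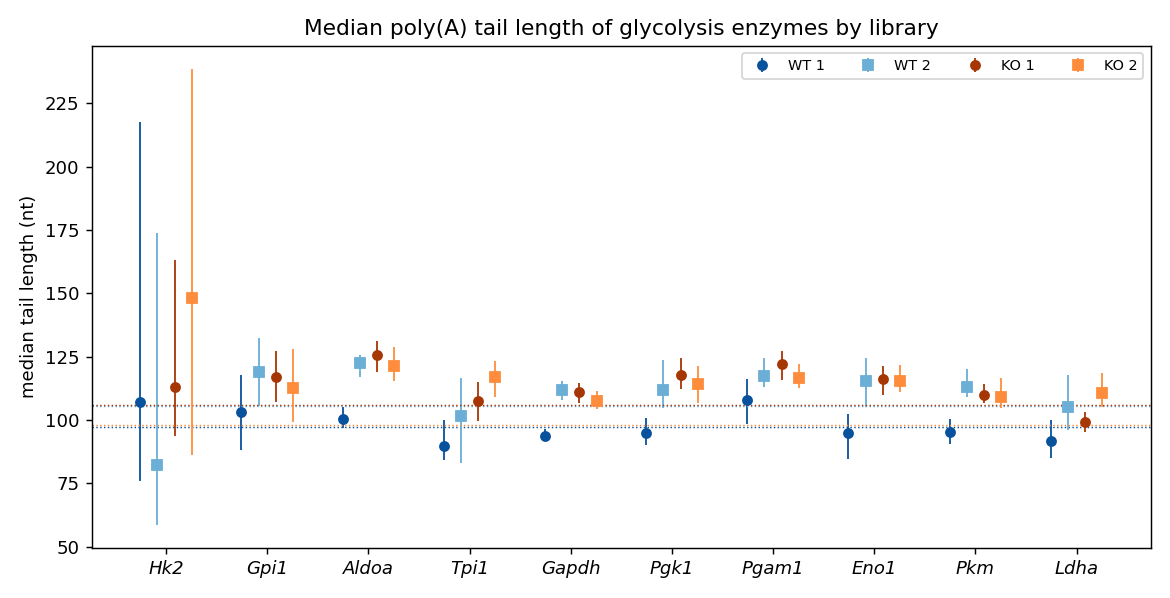
Median poly(A) tail length in nt (vertical axis) of each glycolysis gene in the 4 libraries; bars are 95% binomial order-statistic intervals over reads and dotted lines are the medians of all reads of each library. WT 1 (dark blue) is the lowest point of each gene from Gpi1 to Ldha, while the bars of Hk2, with 8 to 29 reads, span most of the axis.

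Hk2 encodes hexokinase 2, which traps glucose in the cell by phosphorylating it. It had 8, 11, 29 and 13 reads, and its median tails were 107.3, 82.2, 113.2 and 148.2 nt. The KO medians were above the WT ones, but the 95% intervals of all 4 overlapped (58.6 to 174 nt in WT 2, 86.3 to 239 nt in KO 2), and the gene fell under the minimum of 20 reads for a test. Gpi1, glucose-6-phosphate isomerase, had 135, 61, 200 and 126 reads with median tails of 103.3, 119.1, 116.9 and 112.6 nt. Its WT 2 value was the longest of the 4, so the genotypes overlapped (log2 difference 0.05, SE 0.15, unadjusted p 0.739).

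Aldoa, the aldolase that splits fructose bisphosphate into trioses, had the longest tails of the 9 genes by the mean of the 4 medians, 117.5 nt. In 899, 361, 685 and 517 reads its median tails were 100.5, 122.5, 125.6 and 121.2 nt. WT 1 stood well below the others, which did not separate by genotype, and the log2 difference was 0.15 (SE 0.11, unadjusted p 0.172). Tpi1, triose phosphate isomerase, had 89.8, 101.5, 107.6 and 117.0 nt in 161, 78, 303 and 170 reads. Both KO medians exceeded both WT medians (95.6 ± 8.29 nt in WT and 112.3 ± 6.62 nt in KO, mean ± SD, 2 libraries each), and Tpi1 had the largest difference of the 9, 0.23 (SE 0.14, unadjusted p 0.0900). Without WT 1 it was still the largest, at 0.15, but without KO 2 it was 0.17, under Pgk1 at 0.19 and Aldoa at 0.18.

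Gapdh, glyceraldehyde-3-phosphate dehydrogenase, makes the NADH of the pathway and was the most deeply read of the 10 genes, with 2346, 669, 1379 and 1109 reads. Its median tails were 93.8, 111.9, 110.9 and 107.7 nt, so that WT 2 was above both KO libraries and WT 1 well below (log2 difference 0.09, SE 0.10, unadjusted p 0.343). Pgk1, phosphoglycerate kinase, makes the first ATP of the lower pathway and had 94.96, 112.0, 117.9 and 114.1 nt in 450, 140, 456 and 255 reads. Its KO medians lay above its WT medians (log2 difference 0.17, SE 0.12, unadjusted p 0.175). Pgam1, phosphoglycerate mutase, varied least, at 107.8, 117.2, 122.0 and 116.7 nt in 297, 296, 553 and 395 reads. Its genotypes overlapped (log2 difference 0.09, SE 0.12, unadjusted p 0.475).

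Eno1, enolase 1, which makes phosphoenolpyruvate, had median tails of 94.85, 115.3, 116.3 and 115.35 nt in 208, 121, 493 and 261 reads. The KO values were the upper ones, but WT 2 was nearly equal to KO 2, and the log2 difference of 0.15 (SE 0.13, unadjusted p 0.250) was 0.01 without WT 1. Pkm, pyruvate kinase, which yields pyruvate and ATP, had 95.1, 113.1, 110.0 and 109.3 nt in 630, 410, 961 and 613 reads, with WT 2 the longest (log2 difference 0.08, SE 0.11, unadjusted p 0.470). Ldha, lactate dehydrogenase A, had 91.85, 105.2, 99.1 and 110.7 nt in 343, 182, 605 and 426 reads. It was the 1 gene of the 9 in which KO 1 lay under both WT 2 and KO 2, and its log2 difference was 0.09 (SE 0.12, unadjusted p 0.450).

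In all, KO medians did not overlap WT medians, being higher, for Tpi1, Pgk1 and Eno1, 3 of 9 genes, against 14.7% of all genes tested. For none of the 9 were both KO medians below both WT medians, against 11.8% of all genes tested. WT 1 had the shortest median of the 4 libraries in 9 of 9 genes, and did so in 38.1% of all 1935 genes. KO 2, whose library median was nearly as low as that of WT 1, had the shortest median in 37.3% of all genes and in 0 of the 9. Relative to the median of all reads in the same library, the 9 glycolysis medians had median ratios of 0.976, 1.07, 1.10 and 1.16. With each length divided by the median of its library, the tail difference between genotypes was above 0 for 9 of 9 genes and 49.5% of all genes, with a median of 0.0858 over the 9. Beyond that and leaving WT 1 out, the part that the library has in the difference was not tested.

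By the mean of their log2 medians the 9 genes ranked Aldoa, Pgam1, Gpi1, Eno1, Pgk1, Pkm, Gapdh, Tpi1 and Ldha, with Ldha at a mean of 101.7 nt. No 2 neighbours in that ranking kept their order in all 4 libraries. Of the 36 pairs, 18 did, among them Aldoa above each of the 6 genes from Eno1 to Ldha, and Pgam1 above Eno1, Pgk1, Pkm, Gapdh and Ldha. Aldoa exceeded Ldha by a mean of 15.8 nt over the libraries and Pgam1 exceeded Ldha by 14.2 nt. Among 431 other genes with at least 100 reads in every library, the 3 whose 4 medians lay nearest to the typical glycolysis gene were Sec61g, a subunit of the protein translocation channel, Ppia, the peptidyl-prolyl isomerase cyclophilin A, and Ndufb2, a subunit of respiratory complex I. Sec61g, the nearest, had 95.5, 117.8, 115.0 and 113.9 nt, a mean absolute log2 difference of 0.0212.

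Long tails gave fitted differences in the same direction. The share of reads with tails of 150 nt or more had fitted log odds above 0 in KO for 9 of 9 genes, against 48.1% of all genes, and none passed the test (adjusted p 0.9997 for each; 64 of all 1935 genes, none of the 9, had an unadjusted p under 0.05). Both KO shares lay above both WT shares for Gpi1, Aldoa, Gapdh, Pgk1 and Ldha, 5 of 9 genes, against 14.3% of all genes. Aldoa had the largest difference with all 4 libraries: its shares were 17.2%, 26.3%, 32.6% and 31.7%, a log2 odds difference of 0.79 (SE 0.41, unadjusted p 0.0619) that was 0.40 without WT 1. Which gene was largest changed with the setting: Pgk1 without WT 1 (0.52) and at a limit of 200 nt (0.95), Tpi1 without WT 2 (1.34) and at a limit of 120 nt (0.73). In Pgk1 the shares were 14.9%, 18.6%, 25.9% and 23.9% (0.72, SE 0.39, unadjusted p 0.0721). Gapdh had 13.6%, 19.0%, 20.2% and 22.0%, with WT 2 near KO 1. In Tpi1, whose median differed most, the shares were 7.45%, 17.9%, 15.8% and 18.8%, so WT 2 lay between the KO libraries. For Pgam1 the 4 shares ran only from 21.5% to 25.0%. Without WT 1, 6 of 9 log odds differences were above 0, from -0.17 to 0.52, beside 36.8% of all genes.

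Read numbers had fitted differences of both signs. They are given as reads per 1000000 reads after median-of-ratios scaling between libraries (scaled RPM), the scale used in the test. KO against WT, 7 of 10 genes had a log2 difference above 0 and 3 below, from -0.60 for Gapdh to 0.61 for Eno1, beside 50.0% above 0 among all 4815 genes tested. None of the 10 passed an adjusted p of 0.05 (limma voom), while 0.0208% of all genes did, which was Mov10 alone. Of all genes, 500 had an unadjusted p under 0.05, and Eno1 was the 1 glycolysis gene among them. In bulk RNA such as this, fewer cells expressing a gene and less RNA per cell cannot be told apart. The summed level of the 8 pluripotent stem cell markers, 10092, 9057, 7747 and 6472 scaled RPM, was lower in both KO libraries; its part in these values was not tested.

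**Figure D2:**
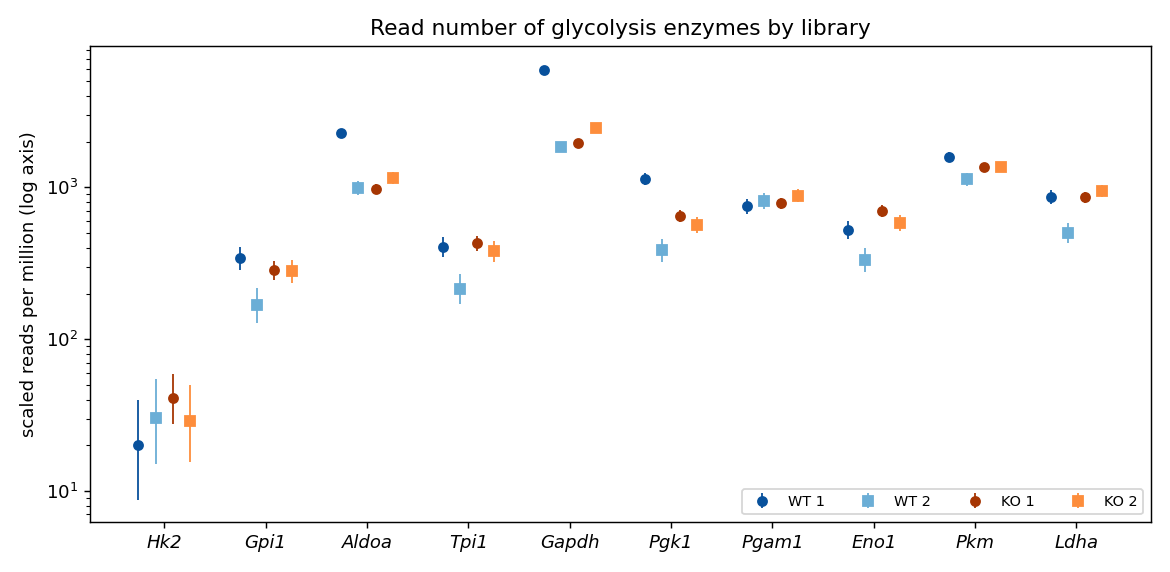
Scaled RPM (vertical, log axis) of each glycolysis gene in the 4 libraries, with exact 95% binomial intervals that cover counting error only. Gapdh, Aldoa and Pgk1 have WT 1 as their highest point, well apart from the other 3, and WT 2 is the lowest point for 7 of the 10 genes. WT 1 is the highest point for 5 of the 10. Of all genes tested for read number, 25.3% were lowest in WT 2 and 32.9% were highest in WT 1.

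Gapdh, Aldoa and Pgk1 had negative differences. Gapdh had 5921, 1846, 1959 and 2473 scaled RPM, so the KO libraries lay between the WT ones (log2 difference -0.60, SE 0.33, adjusted p 0.545). Aldoa had 2269, 996, 973 and 1153 scaled RPM (-0.52, SE 0.29, adjusted p 0.550). In Pgk1 the values were 1136, 386, 648 and 568.5 scaled RPM (-0.13, SE 0.34, adjusted p 0.927). For each of these 3 genes WT 1 was above the 3 other libraries, and leaving it out turned the sign, to 0.26, 0.10 and 0.68. Pkm and Gpi1, below, were also highest in WT 1, but their differences were above 0. On transcripts that carry no other symbol, which hold 14.5% of its reads, the Aldoa difference was -0.0992. With the 2 reads of other symbols merged into Aldoa instead, it was -0.52. Leaving out WT 2 instead of WT 1 gave -1.44, -1.11 and -0.90 for Gapdh, Aldoa and Pgk1. These 3 genes were called lower there, beside 5.13% of all genes called lower in that fit. WT 1 was then the only WT library, so such calls do not measure the spread between WT libraries. No conclusion is drawn from them. Gapdh alone took 42.8%, 28.7%, 24.3% and 28.5% of the reads of the 10 genes.

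Eno1 was the 1 gene of 10 whose genotypes did not overlap, with 525 and 334 scaled RPM in WT and 700.4 and 582 in KO, against 20.5% of all genes with both KO libraries above both WT libraries. Its log2 difference was 0.61 (SE 0.26, unadjusted p 0.0306, adjusted p 0.438). Tpi1 had 406, 215, 430.5 and 379 scaled RPM (0.44, SE 0.29, adjusted p 0.616). Ldha had 866, 502, 859.5 and 949.8 scaled RPM (0.45, SE 0.26, adjusted p 0.578). In both, WT 2 was low and WT 1 lay among the KO libraries. Without WT 1 the differences of Eno1 and Ldha were 0.96 (adjusted p 0.0175) and 0.86 (adjusted p 0.0245), past the threshold that 1.29% of all genes passed upward in that fit; without WT 2 they were 0.29 and 0.06 and did not pass.

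The 4 remaining genes did not pass either, with adjusted p from 0.774 to 0.980. Pkm had 1590, 1131, 1365 and 1367 scaled RPM (log2 difference 0.02, SE 0.23) and Pgam1 had 750, 817, 786 and 881 (0.08, SE 0.23). Gpi1 had 341, 168, 284 and 281 scaled RPM, with both KO libraries between the WT ones (0.23, SE 0.30). Hk2 had 20.2, 30.3, 41.2 and 29.0 scaled RPM, values whose counting intervals overlap (0.49, SE 0.49). All 10 differences were above 0 without WT 1, from 0.04 to 0.96, beside 51.0% of all genes, and 4 of 10 were above 0 without WT 2, beside 48.1% of all genes.

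**Figure D3:**
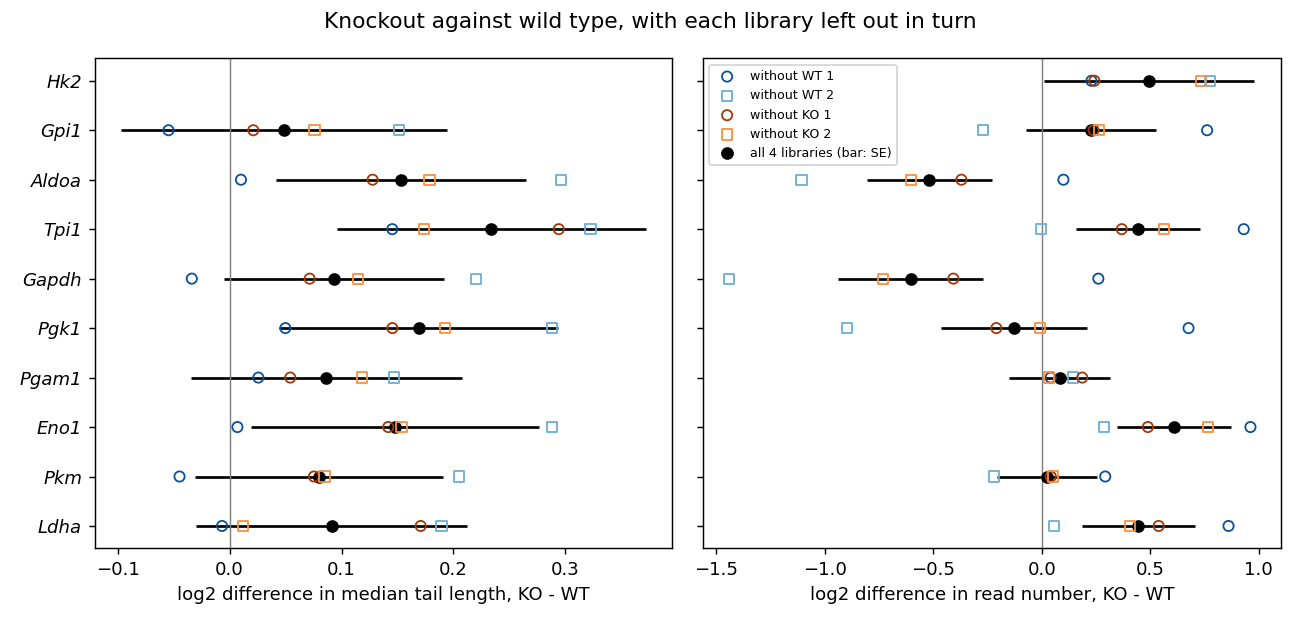
Log2 difference between KO and WT (horizontal axes) in median tail length, left, and in read number, right, for each gene. Black points with bars are the estimate from 4 libraries with its standard error, and open symbols leave out 1 library; for Gapdh the read number runs from -1.44 without WT 2 to 0.26 without WT 1.

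Reads of a gene were assigned to annotated transcripts, and WT 1 also differed there. Gapdh reads lay mainly on 2 transcripts. ENSMUST00000118875.7 took 69.4%, 31.99%, 28.0% and 39.0% of them, and ENSMUST00000117757.8 took 25.7%, 56.4%, 58.7% and 51.5%. In scaled RPM the former had 4106, 590.4, 548 and 965, and the latter 1524, 1040, 1151 and 1273, so most of the Gapdh excess in WT 1 was on a single transcript. The tails of both transcripts were short in WT 1: the medians were 93.7 and 93.3 nt there, and 113.6 and 109.35 nt in WT 2.

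In 4 other genes with several transcripts WT 1 had the highest share on the leading one. The leading transcript of Aldoa, ENSMUST00000032934.11, took 78.6%, 61.8%, 63.1% and 65.6% of its reads. For Ldha, ENSMUST00000048209.15 took 79.9%, 59.3%, 55.2% and 65.0%. For Tpi1, ENSMUST00000172132.8 took 88.2%, 74.4%, 64.4% and 76.5%, and for Gpi1, ENSMUST00000038027.5 took 96.3%, 86.9%, 82.5% and 81.7%. In Pkm the leading transcript, ENSMUST00000034834.15, took 97.6%, 98.5%, 98.8% and 98.9%, and in Eno1, ENSMUST00000080926.12 took 40.4%, 40.5%, 43.0% and 39.8%, so these leading shares were nearly level. Shares of Eno1 reads on other transcripts were not level, on 11 to 64 reads per library. ENSMUST00000235307.1 took 28.8%, 9.92%, 13.0% and 17.6%, and ENSMUST00000076155.5 took 5.29%, 18.2%, 12.0% and 16.5%. Of all reads on these transcripts Eno1 held only 12.4% and 17.6%, and Eno1b held the rest. Of the reads of Eno1 and Eno1b together, ENSMUST00000235307.1 took 60.2%, 29.0%, 29.1% and 39.4%. By the percentage of reads that would have to change transcript to match, WT 1 was the library farthest from the pooled reads of the others in 7 of 7 glycolysis genes with several transcripts, at 1.22% for Pkm up to 36.4% for Gapdh, and in 66.0% of 483 genes with at least 50 reads in every library. Pgk1, Pgam1 and Hk2 had nearly all reads on 1 transcript, and WT 1 still had the shortest Pgk1 and Pgam1 tails.

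**Figure D4:**
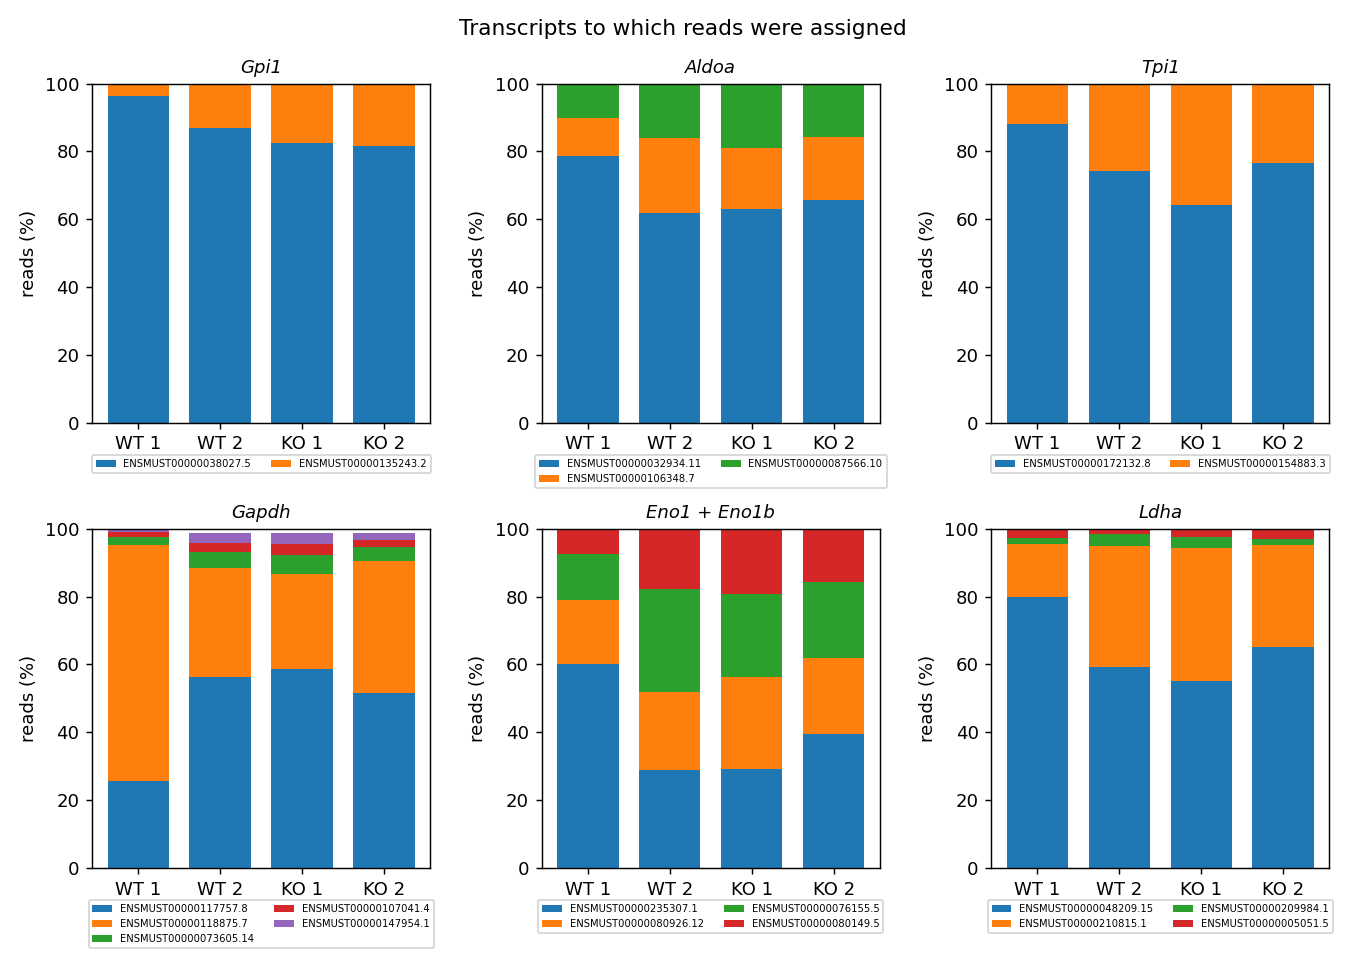
Share of each gene's reads (vertical axis, %) on its annotated transcripts of at least 20 reads, by library; Eno1 is drawn together with Eno1b, whose reads lie on the same transcripts. In WT 1 the leading Aldoa, Ldha and Gpi1 transcripts take more, and the Gapdh transcript in orange takes 69.4% against 28.0% to 39.0% elsewhere.

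Gapdh and enolase have near-identical copies in the mouse genome, and reads on their transcripts carried other symbols too. On the Gapdh transcripts 46 other symbols held 1660 of 7163 reads (23.2%), of which Gm7336, a predicted gene, held 1015. Gapdh's own share was 83.01%, 74.4%, 71.4% and 73.6%. Counted together, the Gapdh symbols had 7132, 2480, 2743 and 3360 scaled RPM and a log2 difference of -0.49 (adjusted p 0.610), so WT 1 stayed the highest. Aldoa and Pkm each shared transcripts with 2 stray reads of other symbols, and Hk2, Gpi1, Tpi1, Pgk1, Pgam1 and Ldha with none that bore on their counts.

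Eno1 could not be separated from Eno1b, the symbol of another enolase gene, in these reads. None of its reads lay on a transcript that carried Eno1 alone. On its 4 transcripts Eno1 had 1083 reads and Eno1b 2504, and the share given to Eno1 was 19.1%, 26.2%, 42.5% and 29.7% of the merged reads. That share was highest in KO 1, and it varied by transcript: on ENSMUST00000080149.5 Eno1 had 64.6%, 46.3%, 71.8% and 49.3% of reads, and on ENSMUST00000235307.1 it had 9.16%, 8.96%, 18.9% and 13.3%. Eno1b had 2221, 941, 948 and 1378 scaled RPM, the profile of Gapdh and Aldoa with WT 1 on top (log2 difference -0.36, SE 0.30, adjusted p 0.720). Merged, the pair had 2746, 1275, 1647 and 1960 scaled RPM and a log2 difference of -0.07 (adjusted p 0.954), against 0.61 for Eno1 alone. The Eno1 difference in read number, and its lack of overlap, therefore depends on how reads were divided between the symbols. Eno1b had median tails of 94.5, 122, 119.6 and 118.8 nt, short in WT 1 as for Eno1, and merging the symbols gave a log2 tail difference of 0.14 against 0.15.

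**Figure D5:**
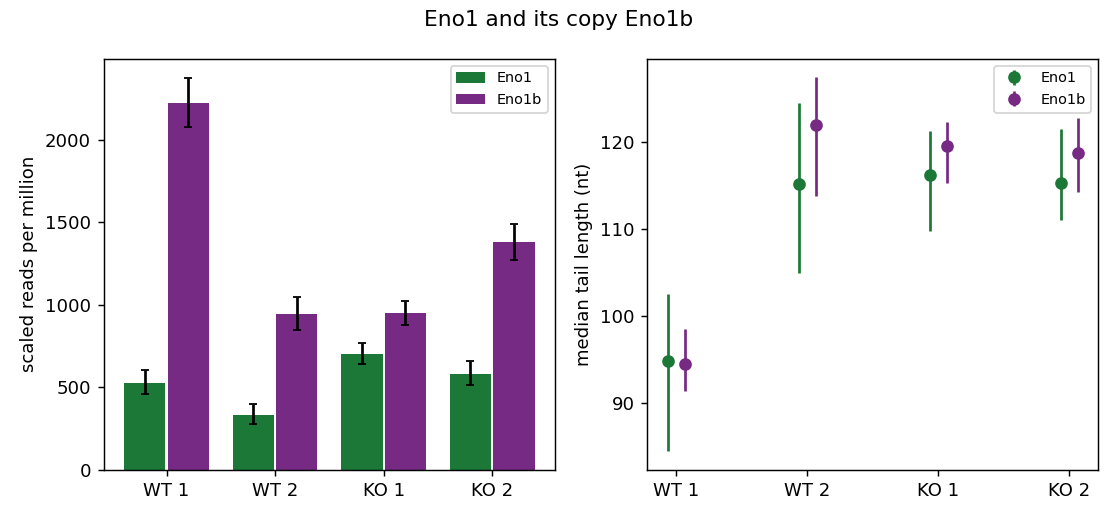
Scaled RPM (left, bars from 0, with exact 95% binomial intervals) and median tail length in nt (right, with 95% order-statistic intervals) of Eno1 and Eno1b by library. Eno1b has more reads than Eno1 in each library, and both have their shortest tails in WT 1, at 94.85 and 94.5 nt.

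The deposited table also has 3 yes-or-no columns whose names refer to Mov10 targets and the mRNA mark m6A; how the classes were made is not given in the sources used here. Hk2 and Pgam1 were listed as Mov10 targets with m6A, and Aldoa, Gapdh, Pgk1, Eno1, Pkm and Ldha as targets without it. None of the 10 was among the non-targets, and Gpi1 and Tpi1 were in no class. Of all 1935 genes tested for tail length, 14.2% were targets with m6A, 37.2% targets without it, 30.03% non-targets and 18.6% in none. The fitted tail differences of the 6 targets without m6A ran from 0.08 to 0.17 and that of Pgam1 was 0.09, while Tpi1, in no class, had the largest.

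Neighbouring steps of sugar metabolism showed no gene past the threshold in tail length or read number. Of 17 other isoenzymes, 12 had reads and 5 could be tested for read number; 0 of 5 were above 0, with a median of -0.36, and without WT 1 3 of 5 were. Eno1b, described above, and Ldhb had the most reads. Ldhb, the lactate dehydrogenase subunit favoured in oxidative tissue, had 674, 185, 452 and 161 scaled RPM, with replicates of each genotype far apart (log2 difference -0.37, SE 0.45). Pfkp, a phosphofructokinase, had median tails of 116.8, 140.1, 136.0 and 86.9 nt, on 26 to 36 reads a library.

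Of 10 genes for entry, exit and regulation, 6 were tested for read number, 3 of them above 0. The glucose transporters had differences of opposite sign, and neither passed. Slc2a3, the high-affinity transporter, had 283, 201, 146 and 129 scaled RPM (log2 difference -0.79, SE 0.28, unadjusted p 0.0113, adjusted p 0.312), and Slc2a1, the widely expressed one, had 169, 85.5, 180 and 247 scaled RPM (0.78, SE 0.33, unadjusted p 0.0260, adjusted p 0.406). In both genes the KO libraries lay on 1 side of the WT libraries. Bsg, the chaperone of the lactate transporters, had 389, 163, 269 and 212 scaled RPM (-0.08, SE 0.33).

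Pyruvate oxidation was represented by 12 genes, of which 9 were tested for read number and 3 were above 0. Among the 3 most read, Pdhb and Pdha1, the subunits of pyruvate dehydrogenase E1, had differences of -0.10 (SE 0.28) and 0.42 (SE 0.31). Pdk1, the kinase that inhibits that enzyme, had 50.5, 49.7, 114 and 120 scaled RPM (1.19, SE 0.34, unadjusted p 0.00221, adjusted p 0.162), with KO above WT. Of 7 pentose phosphate genes 6 were tested and 4 were above 0. Tkt, transketolase, had 298, 314, 406 and 272 scaled RPM, Taldo1, transaldolase, had 363, 210, 207 and 203, and Pgls, the lactonase, had 106, 71.7, 139 and 174 (0.80, SE 0.32, adjusted p 0.377). Pck2, the mitochondrial enzyme of gluconeogenesis, was the 1 tested gene of its list (0.44, SE 0.31). Of the transcription factors 4 of 5 were tested and 2 were above 0: Hif1a had 16, 18, 51 and 36 reads (0.74, SE 0.36, adjusted p 0.492), Epas1 4, 6, 23 and 32 reads (1.73, SE 0.73, adjusted p 0.410), and Mycn 28, 10, 31 and 21 reads (-0.00254, SE 0.43).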

How the data were processed

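Direct RNA nanopore reads from 4 libraries (2 WT, 2 KO) were analysed. Per the labels' protocols, poly(A) RNA was enriched on oligo(dT) beads and multiplexed with DeePlexiCon adapters, which favours RNA with a tail. The submitters' processing notes name minimap2 2.20; the tail estimator, basecaller, build, annotation and the sharing of reads between symbols are not given in the sources used here. Per the file headers, the deposited table gives each read an Ensembl transcript, a symbol, a library, 3 class columns and a tail length in nt, another unit than counts. Of 1903922 reads, 3 without a length above 0 were left out. Depth is the reads per library given in the report, and intervals cover read sampling only.

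Tails were tested with limma 3.58.1 (R 4.3.3) on log2 medians, read-count trend, at least 20 reads in each library. Shares of 150 nt or more were tested likewise as log2 odds with 0.5 reads added to each side. Reads per symbol, counted here, were tested with limma voom (0.5 added, median-of-ratios scaling, mean of at least 10 reads). P-values were Benjamini-Hochberg adjusted over all genes, threshold 0.05. On simulated data the tests recovered 56% (tails, 0.5 log2, 1935 genes), 13% (long share, 1 log2, 1935 genes) and 15% (reads, 1 log2, 4815 genes) of changes, and 100%, 71% and 92% at 1, 2 and 2 log2. There were 7 false calls in each test. Simulated libraries had independent noise with the same setting for all genes, and no shift of a whole library such as that of WT 1. These rates may therefore differ in the data themselves. Tables were handled with Python 3.11.15, pandas 2.3.3, numpy 2.4.6 and scipy 1.17.1.

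The members, gene lists and tests were chosen with earlier results of these data known. All 10 members and Mov10 are named; of the other lists genes past the threshold, else up to 3 with the most reads; sharing symbols; and the 3 nearest genes by tail. Libraries were grouped by title. Same-numbered WT and KO libraries did not deviate together across genes (r 0.0135 for tails, 0.0155 for reads), and the main tests did not pair them. With 2 libraries per genotype this cannot exclude that they were prepared as pairs. Alternatives changed the summary, filters, scaling, model, block and copies, or left out each library; merging of copies was chosen after seeing the data.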

Additional observations from a re-analysis of the deposited data

How the results depend on the processing

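No gene passed the tail length test, but 2 of all genes did without WT 2 (range 0 to 2 over the libraries left out) and 1 when 10 reads a library sufficed. Reads: 1 gene passed, with 90 without WT 1, 456 without WT 2 and 0 without KO 1 or KO 2, 7 under scaling by library totals (median over all genes 0.11), 96 without a filter, and 0 with a mean of at least 50 reads or with limma-trend. Long tail share: 0 passed, with 9 without WT 1, 9 without WT 2 and 0 without KO 1 or KO 2. In such fits the lone library of a genotype is assumed to vary like those of the other. With the replicate block, 65 genes passed for reads, Gapdh among them (-0.72, adjusted p 0.0362, 0.727% of all genes called lower), and 0 for tails and long shares; it changed no other call of a glycolysis gene. Of 186 values of glycolysis genes in settings other than leaving out a library, 179 kept direction and call, 1 became called and 6 turned sign: per transcript, tails of Gpi1 (-0.00121) and Ldha (-0.00398); with copies merged, reads of Eno1 (-0.0706); with a limit of 200 nt, long shares of Gpi1 (-0.60), Tpi1 (-0.0818) and Pgam1 (-0.28). Of 112 values on leaving out a library, 93 kept both, 5 became called and 14 turned sign, and the causes were not tested. The ranges were, for tails, Gpi1 -0.0545 to 0.15, Gapdh -0.0337 to 0.22, Pkm -0.0447 to 0.20 and Ldha -0.00668 to 0.19. For reads they were Gpi1 -0.27 to 0.76, Aldoa -1.11 to 0.10, Tpi1 -0.00288 to 0.93, Gapdh -1.44 to 0.26, Pgk1 -0.90 to 0.68 and Pkm -0.22 to 0.29. For long shares they were Tpi1 -0.0911 to 1.34, Pgam1 -0.0918 to 0.18, Eno1 -0.00326 to 1.06 and Pkm -0.17 to 0.92. Transcripts of a single symbol gave no value for Gapdh, Eno1 and Pkm. Read numbers of 8 to 29 limit Hk2.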
